A study of Mus musculus with 9 samples.

Results

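Spinal cord RNA of mice with experimental autoimmune encephalomyelitis (EAE) was compared between animals given calcitriol and animals given placebo, 6 h after the treatment. The comparison uses 6 of the 9 one-colour oligonucleotide arrays of the series, each hybridised with total RNA of 1 sample. On 3 of them (replicates 6, 7 and 8) the B10.PL mice had EAE and had received 200 ng of 1,25(OH)2D3, and on the other 3 (replicates 1, 5 and 10) the B10.PL mice had EAE and had received placebo. Both groups therefore carry the disease, and only the agent differs between them by label. The title of calcitriol replicate 6 names 1,25(OH)2D2 in place of 1,25(OH)2D3, and this array was kept in its group. The remaining 3 arrays, of naive B10.PL mice (replicates 2, 3 and 4), took no part in the comparison and are given as levels only. The labels state neither age, sex and disease score nor how EAE was induced and how the agent was given. They do not say whether replicates are separate animals, so the errors measure the spread between arrays, which may be technical. Of 12488 probe sets on the array, 12422 are not controls and all of these were considered, and the 11893 above a floor of 19.9 signal units on at least 3 of the 6 arrays were tested. The other 529 were too dim.

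EAE models multiple sclerosis in rodents by an immune attack on brain and cord, in which T cells and blood-derived macrophages enter the cord, microglia and astrocytes become reactive, and myelin and axons are damaged. Calcitriol, the hormonal form of vitamin D, binds the vitamin D receptor, a nuclear receptor that pairs with a retinoid X receptor on response elements in DNA and switches on genes such as Cyp24a1, whose product degrades the hormone. In EAE calcitriol is known to lessen or prevent disease, and the comparison asks which transcripts of the diseased cord differ within hours of treatment.

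Median deposited signals on the 6 arrays ran from 122.0 to 135.8, and 6.13% to 8.85% of the probe sets lay at the floor. Over the probe sets, the correlation of log2 signals was 0.919 to 0.934 within the placebo group, 0.896 to 0.935 within the calcitriol group and 0.895 to 0.942 between arrays of different groups, so that arrays of 1 group were not closer to each other than to the other group. Calcitriol replicate 6 was in the lowest pairs and held the most exact zeros, 121 against 19 to 95 on the other 5 arrays. Markers of the labelled tissue read above the floor on all 6 arrays, among them Snap25 of neurons (606.5 to 1087 signal units), Mobp of myelin (1612 to 3312) and the spinal Hox gene Hoxc8 (200.2 to 326.9). The liver gene Alb also read 128 to 169 and the muscle gene Mylpf 105 to 141. A signal above the floor therefore need not mean that a transcript was present. Arg1, the arginase of alternatively activated macrophages, lay below the floor on all 3 naive arrays and at 978 to 3202 on the EAE arrays. The beta-actin control probe sets, which compare the 5′ with the 3′ end of the transcript and so the length of the labelled RNA, differed by -0.80 ± 0.35 log2 (SD, n = 3) on the placebo and -0.67 ± 0.16 log2 (SD, n = 3) on the calcitriol arrays (two-sided exact permutation p = 0.6, where 3 against 3 arrays allow no p below 0.1).

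No probe set differed between calcitriol and placebo at an adjusted p under 0.05 (limma, Benjamini-Hochberg, 0 of 11893, 0%), and the smallest adjusted p was 0.891. At an unadjusted p under 0.05 there were 525 probe sets (4.41%), 227 higher (1.91%) and 298 lower (2.51%) with calcitriol, which is no more than the 5% that such a threshold passes when nothing differs. The 3 calcitriol values lay all above the 3 placebo values for 593 probe sets (4.99%) and all below them for 628 (5.28%). Differences of at least 2-fold without overlap were seen for 40 probe sets higher (0.336%) and 66 lower (0.555%). Log2 differences had a median standard error (SE) of 0.23 and an unadjusted 95% interval of 0.53 to either side at the median. At 3 arrays per group, differences of less than about this size could not be told from 0 for many probe sets even before adjustment. The adjustment over 11893 probe sets asks for more, so larger differences could also go uncalled. Genes and lists below are therefore described by their levels, and none of the differences named passed the adjusted threshold. Signals joined by 'against' are those of placebo replicates 1, 5 and 10 first and of calcitriol replicates 6, 7 and 8 second.

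**Figure D1:**
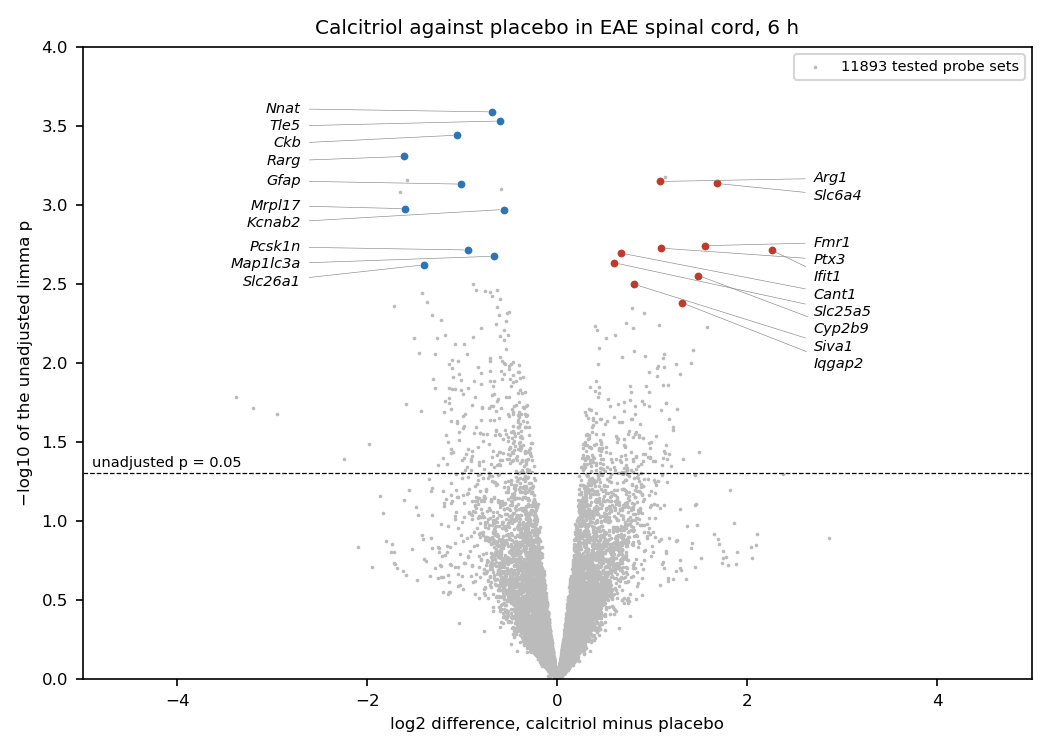
Each grey point is 1 of 11893 tested probe sets, with the log2 difference between the 3 calcitriol and 3 placebo arrays on the x axis and the −log10 of the unadjusted limma p on the y axis. The 10 named genes higher (red) and 10 lower (blue) with calcitriol stand at the top of both arms, and the smallest adjusted p of all points was 0.891.

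Nnat, Tle5 and Ckb had the smallest unadjusted p of the genes that stood lower with calcitriol, followed by Rarg and Gfap. The brain proteolipid neuronatin, encoded by Nnat, measured 737, 863 and 719 signal units on placebo replicates 1, 5 and 10 and 469, 460.4 and 506 on calcitriol replicates 6, 7 and 8, a difference of -0.69 ± 0.12 log2 (SE) or 1.61-fold (limma adjusted p = 0.891). The calcitriol arrays of this gene lay close together and well below the placebo arrays, and the naive arrays were at 557, 501 and 467, near the calcitriol level. Tle5, a corepressor of the Groucho family, stood at 787, 880.3 and 806 with placebo and 538, 531 and 554 with calcitriol (-0.61 ± 0.11 log2 (SE), adjusted p = 0.891 in limma). Ckb, the brain creatine kinase that buffers ATP, gave 4396, 3349 and 3621 against 1552, 2279.5 and 1681, 2.08-fold lower with calcitriol (-1.05 ± 0.19 log2 (SE), adjusted p = 0.891 in limma). Its naive arrays, at 4590.1, 3350.2 and 4192, were near the placebo level, so for Ckb the calcitriol arrays stood below both other groups.

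Gfap, the intermediate filament of astrocytes that marks their reaction to injury, was represented by a pair of probe sets, and both were lower on every calcitriol array. The brighter gave 4617, 4594 and 4364 on the placebo arrays and 2560.3, 2643 and 1664 on the calcitriol arrays, a 2.02-fold difference (-1.01 ± 0.20 log2 (SE), limma adjusted p = 0.891). Its second probe set read 2398, 2789 and 2373 with placebo and 1722, 1555 and 941 with calcitriol (-0.88 ± 0.22 log2 (SE)). Naive replicates 3 and 4 measured 1345 and 1392 on the brighter probe set, while naive replicate 2 is listed at 0. The 3 placebo values of Gfap were nearly equal, and calcitriol replicate 8 was the lowest EAE array.

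Pcsk1n, Kcnab2, Map1lc3a and 3 genes near the floor were also lower on every calcitriol array. Pcsk1n, the precursor of an inhibitor of prohormone convertase, read 815, 652 and 436 with placebo and 369, 293 and 301 with calcitriol (-0.94 ± 0.22 log2 (SE)). Kcnab2, an auxiliary subunit of voltage-gated potassium channels, had 371, 397 and 374 against 250.3, 278 and 245 (-0.56 ± 0.12 log2 (SE)). Map1lc3a, a protein of autophagosome membranes, had 439.8, 381 and 321 against 268, 231 and 217 (-0.66 ± 0.16 log2 (SE)). In each of these 3 genes the groups lay apart by less than 2-fold. Rarg, the gamma retinoic acid receptor, which like the vitamin D receptor pairs with retinoid X receptors, measured 64.5, 63.4 and 63.0 with placebo, and calcitriol replicates 6 and 7 lay below the floor and replicate 8 at 22.8. Mrpl17, a protein of the mitochondrial ribosome, had 91.5, 97.3 and 75.5 with placebo and 37.7, 32.1 and below the floor with calcitriol, and the sulfate transporter Slc26a1 had 57.2, 48.7 and 73.3 with placebo, with calcitriol replicate 6 below the floor and the other two at 27.1 and 20.4. For these 3 genes the calcitriol level was close to the floor, which limits how large a difference could be measured.

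On the higher side Arg1 and the pattern recognition protein Ptx3 stood above the floor on all EAE arrays. Arg1 measured 1114, 1506 and 978 on placebo replicates 1, 5 and 10 and 2452, 1996 and 3202 on calcitriol replicates 6, 7 and 8, 2.12-fold higher (1.09 ± 0.21 log2 (SE), limma adjusted p = 0.891). All calcitriol arrays exceeded all placebo arrays, by the least on replicate 7. Ptx3, a secreted pentraxin that tags microbes and is made by myeloid and stromal cells in inflammation, had 95.2, 141 and 72.6 with placebo, 219, 225 and 190.0 with calcitriol and 26.5, 43.3 and 33.8 on naive arrays (1.09 ± 0.25 log2 (SE), adjusted p = 0.933 in limma). Siva1, a protein that binds the receptor CD27 and promotes apoptosis, read 152, 133 and 219.6 with placebo and 267, 321 and 277 with calcitriol (0.81 ± 0.20 log2 (SE)). Cant1, a calcium-activated nucleotidase of the Golgi, stood at 885, 938 and 1281 against 1660.2, 1540.0 and 1690.4 (0.67 ± 0.16 log2 (SE)), but its second probe set showed -0.01 ± 0.13 log2 (SE).

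Slc25a5 was well above the floor on all EAE arrays, whereas Fmr1, Slc6a4, Cyp2b9 and Iqgap2 were near it with placebo. Slc25a5, the mitochondrial exchanger of ADP for ATP, measured 381, 421 and 373 with placebo and 516, 567 and 716 with calcitriol (0.60 ± 0.14 log2 (SE)), and its other probe sets showed 0.41 ± 0.15 log2 (SE) and 0.42 ± 0.21 log2 (SE) in the same direction. Fmr1, which encodes an RNA-binding protein of synapses, gave below the floor, 23.9 and 38.3 with placebo against 91.5, 80.4 and 62.8 with calcitriol (1.55 ± 0.35 log2 (SE)), while its second probe set went the other way (-0.24 ± 0.35 log2 (SE)). Slc6a4, the serotonin transporter, had 99.6, 73.5 and 59.3 with calcitriol and 24.1 and 27.5 on placebo replicates 1 and 5, and placebo replicate 10 is listed at 0. Cyp2b9, a cytochrome P450, had 73.4, 67.7 and 112 with calcitriol and below the floor, 36.8 and 34.4 with placebo. Iqgap2, a cytoskeletal scaffold, had 66.7, 62.3 and 41.1 with calcitriol and 25.8, 21.6 and below the floor with placebo. For these last 3 genes the placebo level was at or near the floor.

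**Figure D2:**
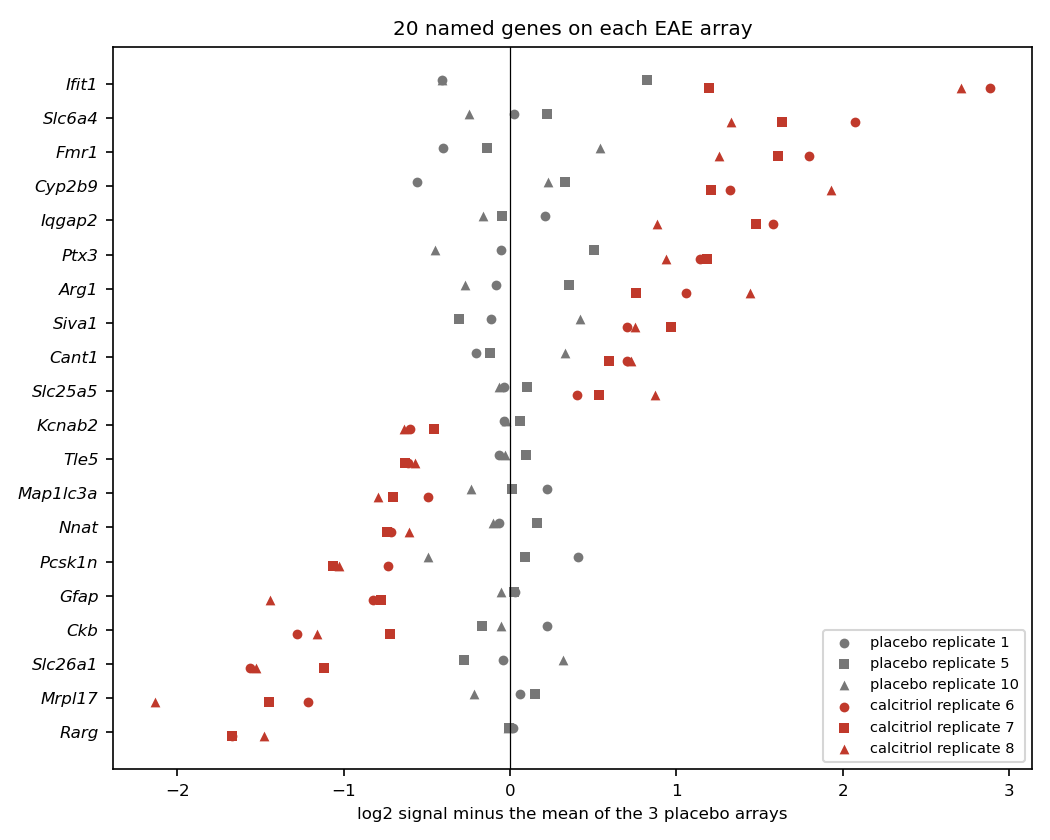
Log2 signals of the 20 named genes on each EAE array are drawn relative to the mean of the 3 placebo arrays (grey), with calcitriol arrays in red and 1 marker shape per replicate. By the rule of choice the colours do not overlap for any gene, and the widest gap between calcitriol arrays is in Ifit1, where replicate 7 lies nearest to placebo.

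The genes of the vitamin D system itself did not stand apart. The 28 measured genes covered the receptor, its partners, the enzymes of the hormone, known targets and related genes. Of these, 15 were higher and 13 lower with calcitriol, and 0 had an unadjusted p under 0.05. Over all 8059 genes, at 1 probe set each, 1.9% were so on the higher and 2.59% on the lower side. Of the 28, 1 was without overlap (Rxra), and their median difference was 0.04 log2, compared with 0.00 over all genes. Vdr, the receptor, was dim, at 28.5, 37.7 and 90.6 on the placebo and 73.6, 34.5 and 36.3 on the calcitriol arrays (-0.03 ± 0.50 log2 (SE), 95% interval -1.16 to 1.10), and its second probe set was at or near the floor. Among the partners, Rxra had 503, 520.5 and 529 with placebo and 487, 455 and 499 with calcitriol (-0.11 ± 0.11 log2 (SE)), Rxrb 0.12 ± 0.12 log2 (SE), and Rxrg, the form found in brain and muscle, 649, 590.2 and 685 against 802, 675 and 768 (0.22 ± 0.12 log2 (SE)). The intervals of the 3 receptors ran over -0.35 to 0.13, -0.15 to 0.40 and -0.05 to 0.49 log2, so a 2-fold difference in either direction lay outside them.

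Cyp24a1, the enzyme that degrades calcitriol and in kidney and gut the most inducible vitamin D target, measured 50.3, 54.4 and 76.3 with placebo and 77.5, 48.9 and 109 with calcitriol. The groups overlapped, since calcitriol replicate 7 was the lowest of the 6 arrays. The difference of 0.33 ± 0.35 log2 (SE) had a 95% interval of -0.47 to 1.13, which still holds a 2-fold higher level. All 6 signals of this probe set lay below those of the liver gene Alb (128 to 169). They therefore need not mean that the Cyp24a1 transcript was present, and the interval describes the signal only. Naive arrays spanned the same range, at 31.2, 54.4 and 110.0. Its second probe set also overlapped, with 29.9 and 22.8 on placebo replicates 5 and 10, placebo replicate 1 below the floor and 25.3, 40.4 and 48.7 on the calcitriol arrays (0.62 ± 0.39 log2 (SE)). Cyp27b1, the enzyme that makes calcitriol, had 598, 527 and 428 with calcitriol and 462 and 429 on placebo replicates 1 and 5. Placebo replicate 10 is listed at 0 for this gene, and that value alone carries most of the fitted difference of 1.70 ± 1.02 log2 (SE), which was 0.20 log2 with exact zeros left out. Among target genes the cell cycle inhibitor Cdkn1a stood at 307, 265 and 216 against 257, 390.4 and 403 (0.40 ± 0.21 log2 (SE)), and its relative Cdkn1b, near the floor, at 0.99 ± 0.50 log2 (SE). Calb2 is on the list as a related calcium-binding protein, not as a known target, and marks a class of spinal interneurons. It was at 422, 299.7 and 362 with placebo and 287, 303 and 258 with calcitriol (-0.34 ± 0.15 log2 (SE)). Both groups overlapped for each of these 3 genes. The calcium handling list of pumps, channels and binding proteins, which shares 3 tested genes with the vitamin D list, had 12 of 27 higher and 15 lower with a median of -0.02 log2. Camk2d, a calmodulin-dependent kinase, stood at 0.96 ± 0.30 log2 (SE) and the neuronal calcium sensor Vsnl1 at -0.47 ± 0.18 log2 (SE), the only members at an unadjusted p under 0.05.

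**Figure D3:**
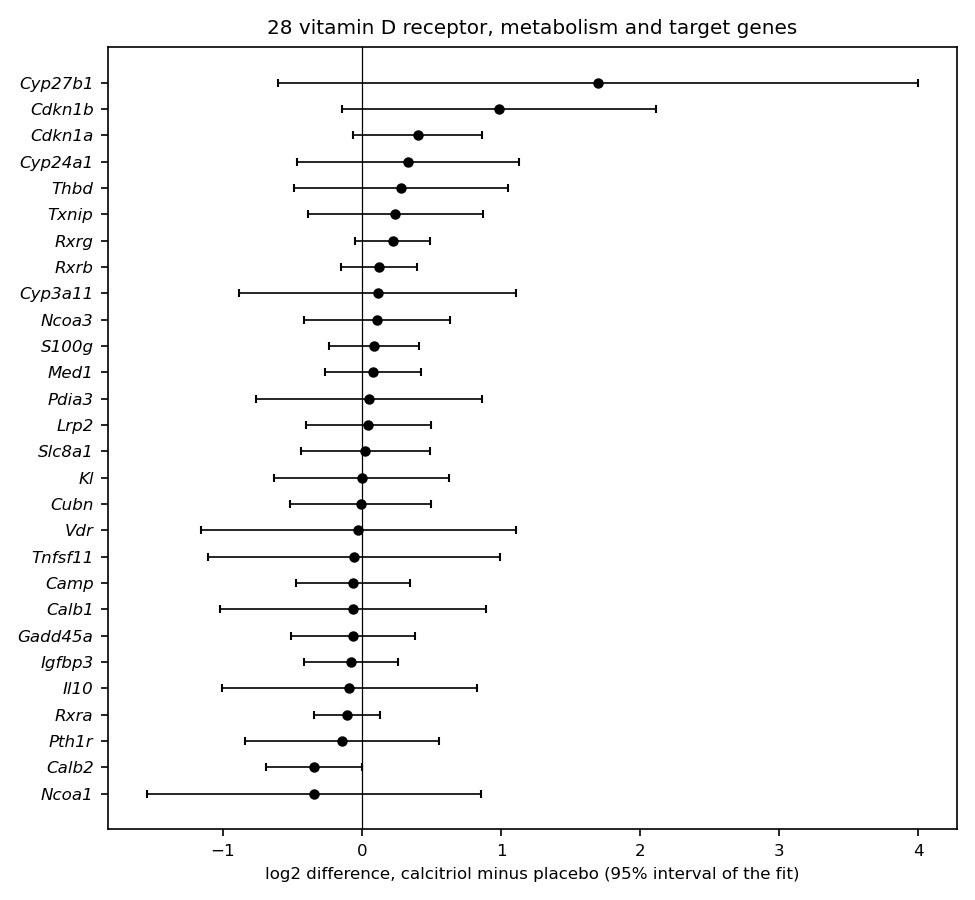
Points are log2 differences between calcitriol and placebo for the 28 tested genes of the vitamin D list, with bars for the 95% interval of the fit. All 28 intervals cross 0, the highest point is Cyp27b1, whose placebo replicate 10 is listed at 0, and Vdr lies at -0.03 log2.

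Gene lists for cell types, immune functions and stress pathways were then read array by array. Over all 8059 genes 49.7% were higher with calcitriol. At an unadjusted p under 0.05, 1.9% were higher and 2.59% lower, and without overlap 5% were higher and 5.46% lower. These shares are the background for the counts of each list below. The median differences of 33 lists ran from -0.24 log2 (oligodendrocyte and myelin genes) to 0.46 log2 (interferon response genes). For the array medians of a list the 3 calcitriol arrays lay above all placebo arrays in 0 of 33 lists and below all of them in 1, calcium handling. The gap in that list was narrow, with calcitriol replicate 6 at -0.046 log2 and placebo replicate 5 at -0.038. In 27 of the 33 lists the placebo arrays alone spanned a wider range than the difference between the groups. Calcitriol replicates 6 and 8 both lay above the placebo range, with replicate 7 inside it, for the interferon, MHC class I, MHC class II, monocyte, chemokine, cytokine and T cell lists. The same arrays both lay below it, again with replicate 7 inside, for the astrocyte and neuron lists. The gaps were uneven. In the cytokine list replicate 7 (0.075 log2) was nearly level with replicate 6 (0.087), and in the T cell list replicate 8 (0.0121) barely exceeded placebo replicate 5 (0.0112). In the neuron list replicate 7 lay below placebo replicates 1 and 5.

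**Figure D4:**
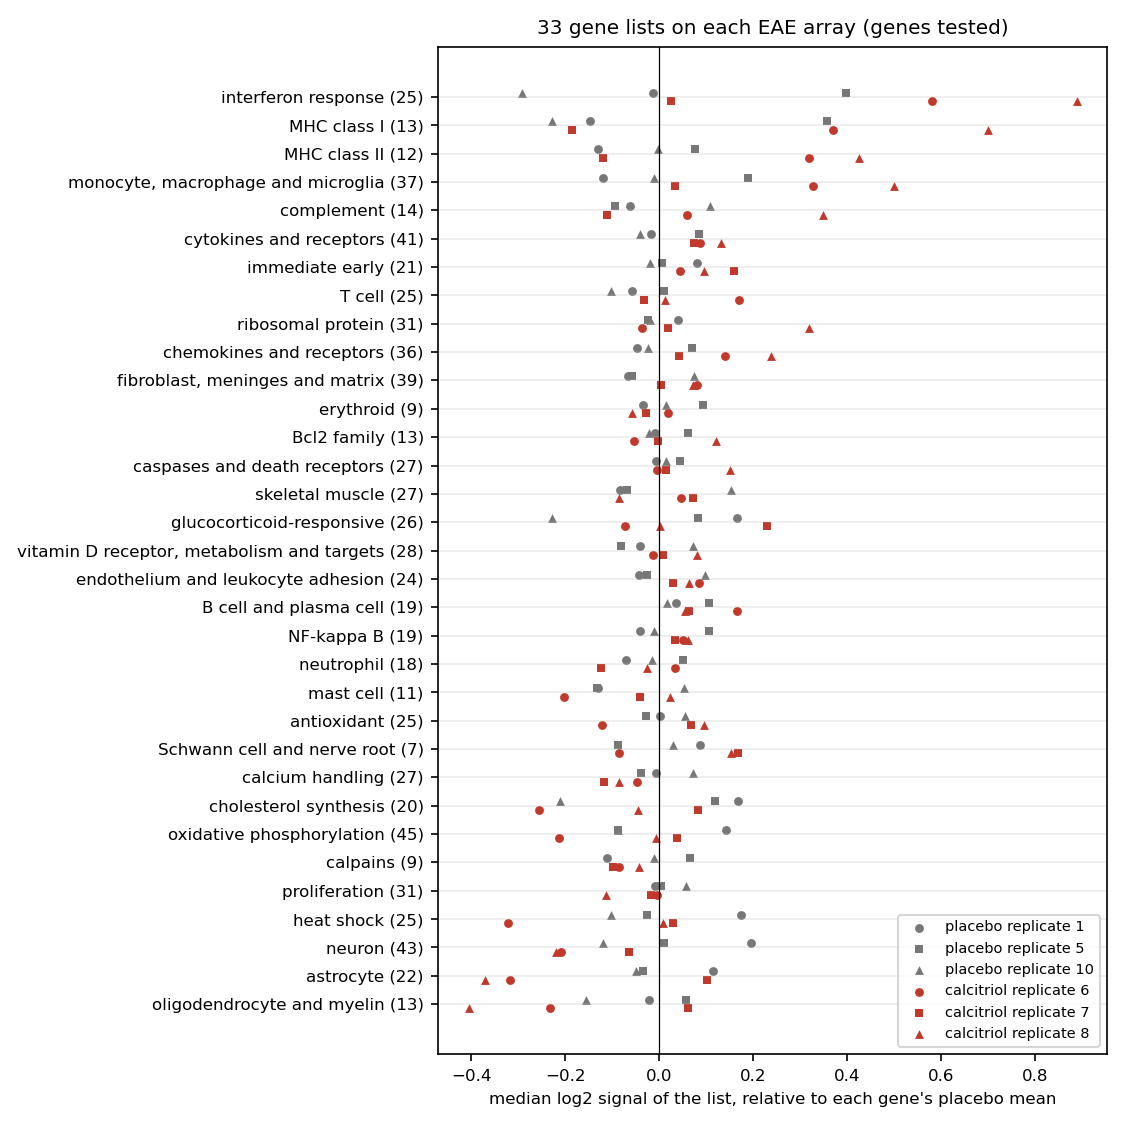
For each of 33 gene lists (number of genes tested in brackets) the median log2 signal relative to each gene's placebo mean is drawn for the 3 placebo (grey) and 3 calcitriol (red) arrays. Calcitriol replicates 6 and 8 lie highest in the interferon list, at 0.58 and 0.89, and replicate 7 lies at 0.03, between placebo replicates 1 and 5.

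Interferon response genes were the list with the largest median difference. Interferons act through STAT and IRF factors on genes that restrict virus growth, present antigen and attract lymphocytes. Of 25 tested genes, 22 were higher and 3 lower with calcitriol, 5 higher and 0 lower at an unadjusted p under 0.05, and 1 without overlap, with a median of 0.46 log2. Over all genes 1.9% were higher at that p and 5% higher without overlap. The array medians overlapped between the groups, at -0.01, 0.40 and -0.29 on placebo replicates 1, 5 and 10 and 0.58, 0.03 and 0.89 on calcitriol replicates 6, 7 and 8. Of the 25 genes, 19 exceeded all placebo arrays on calcitriol replicate 6 and 20 on replicate 8, but only 2 on replicate 7. Without replicate 7 the median was 0.75 log2, and without replicate 8 it was 0.30.

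Ifit1, an interferon-induced inhibitor of viral translation, was the member without overlap, with 196, 60.8 and 174 on the calcitriol arrays, 46.9 on placebo replicate 5 and the other placebo and all naive arrays below the floor (2.26 ± 0.52 log2 (SE), limma adjusted p = 0.933). Irgm1, a GTPase that acts against intracellular pathogens, had 53.7, 107 and 40.4 with placebo and 205, 107 and 285 with calcitriol (1.58 ± 0.44 log2 (SE)), and calcitriol replicate 7 lay at the level of placebo replicate 5. Ifitm3, a membrane protein that blocks virus entry, had 414, 566 and 337 against 984, 431 and 1403 (0.97 ± 0.38 log2 (SE)). The GTPase Iigp1 had 421, 679.8 and 248 against 806, 553 and 1038 (0.90 ± 0.35 log2 (SE)), and Usp18, which removes the ubiquitin-like modifier ISG15, 147, 196 and 169 against 223, 195 and 263 (0.41 ± 0.18 log2 (SE)). In Irgm1, Ifitm3, Iigp1 and Usp18 the order of the arrays repeated, with calcitriol replicates 6 and 8 above all placebo arrays and replicate 7 near or below placebo replicate 5.

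The promoters of Ifit1, Irgm1 and the interferon-induced chemokine Cxcl10 are shown because these genes had higher means with calcitriol and hold matches to the response element through which interferon factors act. Each is the RefSeq window from 250 bases before to 50 after the gene's start (GRCm38.p6), read 5′ to 3′ on the gene's strand, with matches to the element's core (GAAA, any 2 bases, GAAA) on either strand in capitals. They lie at chr19:34640639-34640938 (plus strand), chr11:48871371-48871670 (minus strand) and chr5:92348840-92349139 (minus strand).
Ifit1: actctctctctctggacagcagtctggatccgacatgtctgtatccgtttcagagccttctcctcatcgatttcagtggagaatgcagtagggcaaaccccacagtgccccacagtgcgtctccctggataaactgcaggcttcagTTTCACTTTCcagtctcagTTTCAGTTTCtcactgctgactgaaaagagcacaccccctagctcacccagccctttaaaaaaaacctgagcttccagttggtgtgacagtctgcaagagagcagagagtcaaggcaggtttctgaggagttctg
Irgm1: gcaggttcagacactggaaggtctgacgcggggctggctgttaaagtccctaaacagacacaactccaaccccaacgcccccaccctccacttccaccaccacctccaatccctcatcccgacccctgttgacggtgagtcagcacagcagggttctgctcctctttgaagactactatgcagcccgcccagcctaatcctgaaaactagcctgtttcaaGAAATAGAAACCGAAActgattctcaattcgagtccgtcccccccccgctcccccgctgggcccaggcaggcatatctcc
Cxcl10: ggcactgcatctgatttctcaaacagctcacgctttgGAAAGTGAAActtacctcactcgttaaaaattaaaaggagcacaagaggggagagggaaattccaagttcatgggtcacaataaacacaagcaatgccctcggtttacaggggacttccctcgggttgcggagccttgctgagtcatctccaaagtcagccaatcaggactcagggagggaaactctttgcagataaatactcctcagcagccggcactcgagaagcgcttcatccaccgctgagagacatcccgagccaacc
Ifit1 held 2 matches, both on the opposite strand and from 104 to 76 bases before the start, Irgm1 held 2 that overlap each other, from 30 to 15 bases before it, and Cxcl10 held 1, from 213 to 204 bases before it. The core was present in 3.44% of all 32851 windows of the same length (3.99% of 27025 genes) and for 11 of the 18 tested interferon response genes with a window. The consensus of the vitamin D response element, a direct repeat of a nuclear receptor half-site with 3 bases between (DR3), was searched on both strands as well. Cyp24a1, Calb1, Calb2, Il10, Ncoa3 and Thbd of the vitamin D list and Arg1, Cant1, Tle5 and Map1lc3a were not searched here. It matched 0.256% of all windows, 0 of the 22 vitamin D genes with a window and 0 of the 16 named genes with a window from the 20 above, which says only that these letters are not in these windows.

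Antigen presentation genes had the same array order. MHC class I molecules display peptides from inside the cell and class II molecules peptides taken up by phagocytes. Of 13 class I and peptide loading genes, 11 were higher and 2 lower with a median of 0.35 log2, 1 higher at an unadjusted p under 0.05 (H2-Q1, 1.16 ± 0.48 log2 (SE)) and 0 without overlap. H2-Q1 was near the floor, with placebo replicates 1 and 5 below it and replicate 10 at 31.2. Its calcitriol arrays read 102, 29.9 and 45.5. B2m, the class I light chain, measured 944, 1986 and 764 with placebo and 2910.0, 836 and 4229 with calcitriol (0.95 ± 0.56 log2 (SE)), and the heavy chain H2-D1 1807, 3237 and 1366 against 3955, 1427 and 5724 (0.67 ± 0.49 log2 (SE)). Calcitriol replicate 7 lay among the placebo arrays for both genes, while replicates 6 and 8 were the brightest of the 6. Naive arrays of H2-D1 were at 429, 383 and 344, below every EAE array. The heavy chain H2-Q4 had 440.4, 945 and 381 against 1131, 357 and 1823 (0.74 ± 0.55 log2 (SE)), with replicate 7 the lowest EAE array. Class I heavy chain genes are close copies, which these probe sets may not tell apart. The list's median was 0.54 log2 without calcitriol replicate 7 and 0.19 without replicate 8.

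Of 12 class II and antigen processing genes, 9 were higher and 3 lower with calcitriol (median 0.30 log2, none at an unadjusted p under 0.05). Cd74, the invariant chain, had 284, 667 and 292 with placebo and 802, 289.6 and 1044 with calcitriol (0.71 ± 0.48 log2 (SE)). Ctss, the protease that trims it, had 879, 1189 and 1255 against 1599, 1024 and 2282 (0.50 ± 0.27 log2 (SE)), and the class II chain H2-Aa 318, 447 and 352 against 573, 286 and 779.7 (0.45 ± 0.32 log2 (SE)). H2-DMb1, a chain of the peptide-exchange factor, was higher on every calcitriol array, at 139, 145 and 102 against 157, 150.4 and 203 (0.41 ± 0.21 log2 (SE)), while its close copy H2-DMb2 was lower on every one (-0.24 ± 0.19 log2 (SE)). For Cd74 and H2-Aa calcitriol replicate 7 was close to or below the lowest placebo array.

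Of 37 monocyte, macrophage and microglia genes, 30 were higher and 7 lower with calcitriol, 6 higher and 0 lower at an unadjusted p under 0.05, with a median of 0.28 log2 (0.38 without calcitriol replicate 7 and 0.13 without replicate 8). Over all genes 1.9% were higher at that p. In whole tissue a larger number of monocytes, macrophages and microglia and more RNA per cell cannot be told apart. The list's array medians were -0.12, 0.19 and -0.01 with placebo and 0.33, 0.04 and 0.50 with calcitriol, and 27 of its genes exceeded all placebo arrays on calcitriol replicate 8, 18 on replicate 6 and 3 on replicate 7. The summed signal of the list ran over 14800.1 to 17978 on the placebo, 16018 to 25494 on the calcitriol and 6774 to 8398 on the naive arrays. The 6 genes were Arg1, the lysozyme Lyz2 (115, 260.1 and 236 against 639, 211 and 661, 1.22 ± 0.45 log2 (SE), its second probe set near the floor at -0.12), the galectin Lgals3 (1.49 ± 0.61 log2 (SE)), the surface glycoprotein Cd52 (0.80 ± 0.33 log2 (SE)), the lysosomal protease Ctsc (0.77 ± 0.34 log2 (SE), with 1 of its other probe sets opposite in sign) and the antibody receptor Fcgr3, which was near the floor (1.04 ± 0.40 log2 (SE)). Lgals3 is a marker of phagocytosing macrophages and read 169, 372 and 61.7 with placebo, 437, 253 and 779.9 with calcitriol and below the floor on all naive arrays. Of these 6, Arg1 and Fcgr3 had calcitriol values all above the placebo values.

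Chemokines draw monocytes and T cells into the tissue. Of 36 chemokine and receptor genes, 25 were higher and 11 lower (median 0.08 log2), 2 higher and 0 lower at an unadjusted p under 0.05. The shares over all genes were 1.9% and 2.59%. Cxcl10, which attracts activated T cells, had 93.2, 114 and 85.7 with placebo and 149.8, 147 and 279.7 with calcitriol (0.92 ± 0.28 log2 (SE), adjusted p = 0.933 in limma), with all calcitriol arrays above all placebo arrays. The monocyte attractants Ccl7 (81.6, 108 and 50.6 against 109.7, 107 and 200.2, 0.80 ± 0.35 log2 (SE)) and Ccl2 showed overlap. Ccl2 read 237 and 618 on placebo replicates 1 and 5, lay below the floor on placebo replicate 10 and reached 718, 419 and 1369.8 with calcitriol (2.38 ± 1.05 log2 (SE)), which was 0.96 log2 without placebo replicate 10. Of 41 tested cytokine and receptor genes 27 were higher and 14 lower with a median of 0.10 log2 and 0 at an unadjusted p under 0.05. Ifngr1, a chain of the interferon gamma receptor, was without overlap at 119.6, 113 and 94.6 against 152, 139 and 122 (0.34 ± 0.20 log2 (SE)), and Ifng itself was too dim to test.

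**Figure D5:**
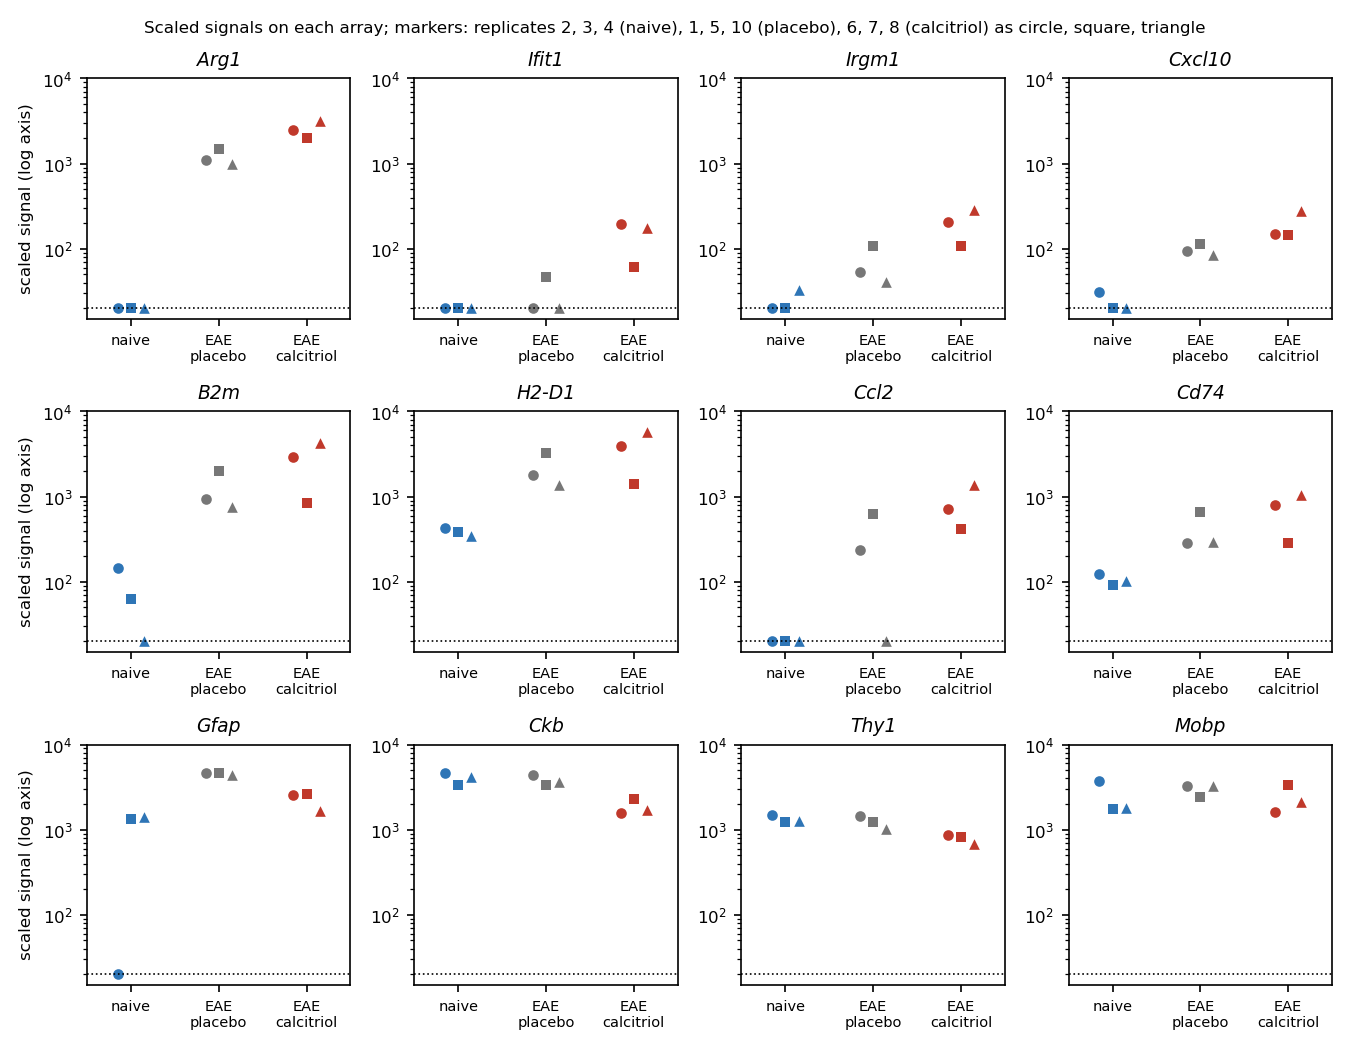
Scaled signals of 12 genes (log axis, dotted line at the floor of 19.9, values below it drawn on it) on naive (blue), placebo (grey) and calcitriol (red) arrays. In B2m, H2-D1 and Cd74 calcitriol replicate 7 (square) lies with the placebo arrays and below replicates 6 and 8, whereas in Gfap, Ckb and Thy1 all 3 calcitriol arrays lie below the placebo arrays, and the naive array at the floor in Gfap is a listed 0.

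Genes of neurons, astrocytes and oligodendrocytes were on balance lower with calcitriol. Of 43 neuron genes, 10 were higher and 33 lower, 0 and 8 at an unadjusted p under 0.05, and 1 and 7 without overlap, with a median of -0.15 log2. Single differences in the list ran from -0.67 to 2.04 log2. Over all genes 2.59% were lower at that p and 5.46% lower without overlap. The array medians were 0.20, 0.01 and -0.12 with placebo and -0.21, -0.06 and -0.22 with calcitriol. Thy1, a surface glycoprotein of neurons that T cells also carry, measured 1454, 1218 and 1006 with placebo and 861, 814 and 686 with calcitriol (-0.63 ± 0.16 log2 (SE)). The microtubule regulator Stmn3 had 371, 259.6 and 275 against 177, 207 and 192 (-0.64 ± 0.17 log2 (SE)), and Sncb, a synuclein of presynaptic ends, 1068, 974 and 688 against 719, 592 and 419 (-0.67 ± 0.22 log2 (SE)). In Thy1 and Stmn3 the groups did not overlap, and calcitriol replicate 7 lay with the other calcitriol arrays. The other 5 were the granule protein Chga (-0.34 ± 0.12 log2 (SE)), the presynaptic proteins Cplx2 (-0.29 ± 0.12 log2 (SE)) and Snap25 (-0.38 ± 0.17 log2 (SE)), the glycolytic enzyme Eno2 (-0.43 ± 0.18 log2 (SE)) and the heavy neurofilament Nefh (-0.41 ± 0.18 log2 (SE)). Each of these 8 was under 2-fold, and all naive values of Thy1 and Stmn3 were above the calcitriol arrays.

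Of 22 astrocyte genes, 6 were higher and 16 lower with calcitriol, 2 of them at an unadjusted p under 0.05, with a median of -0.23 log2 and array medians of 0.11, -0.03 and -0.05 with placebo and -0.32, 0.10 and -0.37 with calcitriol. The 2 were Gfap and Mt3, the metallothionein of brain, which had 3072, 2567 and 2987 against 2228, 1656 and 1476 (-0.70 ± 0.18 log2 (SE)), without overlap. Serpina3n, a protease inhibitor of reactive astrocytes, had 5958, 7381 and 4380.0 with placebo and 4965, 4917 and 3395 with calcitriol against 143, 155 and 143 on naive arrays (-0.41 ± 0.25 log2 (SE)), and overlapped. Aldoc, the astrocyte form of aldolase, read 3813, 3013 and 3109 against 1845, 3520.2 and 2171 (-0.45 ± 0.24 log2 (SE)), with calcitriol replicate 7 among the placebo arrays. The water channel Aqp4 (0.10 ± 0.23 log2 (SE)) and the filament protein Vim (-0.01 ± 0.15 log2 (SE)) were close to 0 difference. Gfap was below placebo on all calcitriol arrays, but the list varied between them. Of its members 14 were below all placebo arrays on replicate 6, 13 on replicate 8 and 5 on replicate 7. Without calcitriol replicate 7 the list's median was -0.44 log2, and without placebo replicate 1 it was -0.07.

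Of 13 oligodendrocyte and myelin genes, 3 were higher and 10 lower (median -0.24 log2), 1 lower at an unadjusted p under 0.05. This was Gjb1, a gap junction protein of oligodendrocytes, with 200.0, 179 and 191 against 147, 151 and 131 (-0.41 ± 0.16 log2 (SE)). Mobp, a structural myelin protein, had 3217, 2435 and 3266 with placebo and 1612, 3312 and 2088 with calcitriol (-0.40 ± 0.26 log2 (SE)), and the myelin surface protein Mog 75.7, 57.0 and 105 against 52.2, 75.1 and 40.5 (-0.50 ± 0.35 log2 (SE)). Mbp, the myelin basic protein, stood at -0.23 ± 0.20 log2 (SE), with its second probe set opposite in sign. In Mobp and Mbp calcitriol replicate 7 was the brightest of the 6 EAE arrays and replicates 6 and 8 were the dimmest. The summed signal of the monocyte list was highest on calcitriol replicates 8 and 6, the arrays with the lowest sums of astrocyte and oligodendrocyte genes, and the part of the cells' makeup in these differences was not tested.

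Genes of cell death were examined because calcitriol is known to affect the survival of inflammatory cells. Calpains are calcium-activated proteases, and of 9 genes of calpain subunits and their inhibitor calpastatin 3 were higher and 6 lower with calcitriol (median -0.08 log2, none at an unadjusted p under 0.05). Capn2, the calpain that needs millimolar calcium, had 206, 184 and 187 with placebo and 173, 238 and 269 with calcitriol (0.21 ± 0.18 log2 (SE), 95% interval -0.20 to 0.63), and the groups overlapped on this probe set. Its second, dim probe set did not overlap, with all placebo arrays below the floor and 43.2, 31.2 and 60.0 with calcitriol. Capn6 was without overlap, at 557, 529 and 537 against 664, 714 and 559 (0.25 ± 0.12 log2 (SE)), with 1 of its other probe sets opposite. Of 13 Bcl2 family genes, 8 were higher and 5 lower (median 0.05 log2), from -0.31 to 0.23, with none at an unadjusted p under 0.05 or without overlap. Of 27 caspase and death receptor genes, 17 were higher and 10 lower (median 0.04 log2). Birc2, an inhibitor of apoptosis, was the 1 lower at an unadjusted p under 0.05, with 115, 122 and 106 on the placebo arrays, calcitriol replicate 6 below the floor and the other two at 77.7 and 79.3 (-1.20 ± 0.50 log2 (SE)), and its second probe set was opposite in sign. Its relative Birc3 stood at 0.25 ± 0.16 log2 (SE). Dffb, the nuclease that cuts DNA in apoptosis, was dim at -0.68 ± 0.37 log2 (SE), with calcitriol replicate 6 below the floor.

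Hormone and early response genes were mixed. Of 26 glucocorticoid-responsive genes 14 were higher and 12 lower (median 0.04 log2). The array medians were 0.17, 0.08 and -0.23 with placebo and -0.07, 0.23 and 0.003 with calcitriol. On calcitriol replicate 7, 13 genes exceeded all placebo arrays and 0 lay below them. On replicate 6 these were 2 and 7, and on replicate 8 they were 7 and 7, so the calcitriol arrays differed from each other. Anxa1, an anti-inflammatory annexin, was higher without overlap at 66.3, 66.5 and 52.4 against 84.7, 88.6 and 134 (0.71 ± 0.28 log2 (SE)), the phosphatase Dusp1 stood at 0.50 ± 0.22 log2 (SE), and Cebpd, a transcription factor of inflammation, at 488, 437 and 309 against 229, 370.2 and 257 (-0.53 ± 0.22 log2 (SE)). Of 21 immediate early genes 13 were higher and 8 lower (median 0.10 log2), with single differences from -0.90 to 2.87 log2. Ier2, an early growth response gene, had 325, 368 and 430.3 against 447, 479 and 529 (0.38 ± 0.14 log2 (SE)), without overlap, and Myc, near the floor, -0.90 ± 0.37 log2 (SE). Of 19 NF-kappa B genes the adaptor Traf1, which was dim, had the smallest unadjusted p (-1.03 ± 0.40 log2 (SE)), and the list's median was 0.01 log2 and turned to -0.01 with values as deposited.

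Stress and housekeeping lists had medians near 0. Among 25 antioxidant genes (median -0.01 log2), Hmox1, the heme oxygenase of macrophages and stressed glia, was higher without overlap at 662, 722 and 604 against 910.4, 763 and 1271 (0.54 ± 0.18 log2 (SE)), and Txn1, thioredoxin, stood at 0.70 ± 0.30 log2 (SE). Gpx4, which removes lipid peroxides, was lower without overlap at 270.2, 279 and 291 against 209.6, 216 and 225 (-0.37 ± 0.12 log2 (SE)). The glutathione transferase Gsta4 stood at -0.96 ± 0.41 log2 (SE), with calcitriol replicate 8 below the floor. Of 25 heat shock genes 8 were higher and 17 lower (median -0.09 log2). Hspb1, near the floor, stood at -0.66 ± 0.38 log2 (SE) and Hsph1, the member with the smallest unadjusted p, at -0.32 ± 0.17 log2 (SE). The list's array medians were 0.18, -0.03 and -0.10 with placebo and -0.32, 0.03 and 0.01 with calcitriol. Only calcitriol replicate 6 lay below the placebo range. Of 20 cholesterol and fatty acid synthesis genes 7 were higher and 13 lower (median -0.07 log2), with the desaturase Scd1 at 995, 679 and 943 against 437, 747 and 450.3 (-0.71 ± 0.23 log2 (SE)). Of 45 oxidative phosphorylation genes 16 were higher and 29 lower (median -0.07 log2). The array medians were 0.14, -0.09 and -0.09 with placebo and -0.21, 0.04 and -0.01 with calcitriol. On calcitriol replicate 6, 25 genes lay below all placebo arrays and 7 above. On replicate 7 these were 7 and 8, and on replicate 8 they were 7 and 10, so the lean to lower values came from replicate 6. The complex I subunit Ndufa2 stood at -0.33 ± 0.12 log2 (SE) and the cytochrome oxidase subunit Cox5a at 0.41 ± 0.16 log2 (SE), both without overlap and in opposite directions. Of 31 ribosomal protein genes 23 were higher and 8 lower (median 0.09 log2), with Rps7 at 0.38 ± 0.16 log2 (SE) and Rpl38 at -0.86 ± 0.32 log2 (SE). The array medians were 0.04, -0.02 and -0.02 with placebo and -0.04, 0.02 and 0.32 with calcitriol. Only calcitriol replicate 8 lay above the placebo range. On that array 18 genes exceeded all placebo arrays and 7 lay below them. On replicate 6 these were 9 and 8, and on replicate 7 they were 8 and 11. Of 31 proliferation genes 10 were higher and 21 lower (median -0.08 log2). Cdk4, a kinase of the G1 phase, was higher without overlap at 377, 351 and 416 against 449, 467 and 484 (0.29 ± 0.12 log2 (SE)). Mki67 was dim and lower, at 22.6, 99.0 and 83.3 against 25.1, 26.2 and 27.9 (-1.12 ± 0.54 log2 (SE)). Cdc25c, also dim, stood at -0.62 ± 0.34 log2 (SE), and the groups overlapped for both.

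Markers of other cells that a cord sample can hold had medians near 0. They were 0.10 log2 for 25 T cell, 0.01 for 19 B cell, 0.01 for 18 neutrophil, -0.01 for 11 mast cell, -0.01 for 7 Schwann cell, 0.03 for 24 endothelial, 0.08 for 39 fibroblast and matrix, 0.04 for 27 skeletal muscle and 0.06 for 9 erythroid genes, and those of the B cell, neutrophil and mast cell lists changed sign with the scaling. Sparc, a matrix protein of astrocytes and vessels, was lower without overlap at 986, 839 and 683 against 615, 559 and 463 (-0.61 ± 0.16 log2 (SE)), as was Cldn5, the tight junction protein of endothelium, at 140.3, 161 and 209 against 104, 119.9 and 130.2 (-0.51 ± 0.21 log2 (SE)). Fibronectin, Fn1, stood at 0.52 ± 0.23 log2 (SE) with overlap. The hemoglobin gene Hba-a1 was higher without overlap, at 789.9, 947 and 878 against 1027, 1141 and 1061 (0.31 ± 0.12 log2 (SE)), and Hbb-b2 stood at 0.86 ± 0.33 log2 (SE), both members of families of close copies. Car2, the carbonic anhydrase that red cells and oligodendrocytes hold, stood at -0.39 ± 0.15 log2 (SE), and of the erythroid genes 5 were higher and 4 lower, 2 and 1 of them at an unadjusted p under 0.05. Ltf, lactoferrin of neutrophil granules, was lower at 302, 289 and 302 against 254, 215 and 254 (-0.31 ± 0.13 log2 (SE)), and Mcpt1, a mast cell protease, at 213, 146 and 185 against 24.4, 76.2 and 87.6 (-1.72 ± 0.45 log2 (SE)), with its second probe set, near the floor, opposite. Of 14 complement genes the inhibitor Cd59a was lower without overlap at 169, 140.2 and 137 against 102, 114 and 104 (-0.47 ± 0.19 log2 (SE)), and the list's median was 0.13 log2. Actb, which encodes beta-actin, stood at -0.19 ± 0.31 log2 (SE).

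Single arrays set a few extreme values. With calcitriol replicate 6 left out, 1 probe set passed the adjusted threshold, of Myl6, a myosin light chain, and with replicate 7 left out 2 passed, of Tulp1, a photoreceptor protein, and of a transcript without a single symbol. Myl6 is listed at 0 on calcitriol replicates 7 and 8 and measured 658 on replicate 6 and 586, 598 and 842 on the placebo arrays. Tulp1 is listed at 0 on calcitriol replicates 6 and 8 and measured 619 on replicate 7 and 531, 629 and 576 with placebo, and the third probe set had its zeros on the same arrays as Tulp1. Exact zeros occurred at 312 places in 303 of the tested probe sets on the 6 arrays, some of them in genes that are bright on other arrays, and such a listed 0 can be a failed estimate. Without calcitriol replicate 6, the array whose title names the D2 compound, 729 probe sets had an unadjusted p under 0.05, and without replicate 7 there were 730.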

How the data were processed

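Intensity values per probe set were taken as deposited by the authors. The authors' scaling and image summary were not given in the sources used here. Each EAE array held 1.27% to 3.23% of values below 0. Each array was brought to the same trimmed mean (2% off both ends, 199.4), values under 10% of this mean were set to it, and log2 was taken. Probe sets exceeding this floor on 3 or more EAE arrays were tested with limma 3.58.1 (R 4.3.3, intensity trend, Benjamini-Hochberg over 11893 probe sets) on the 6 EAE arrays alone, with 4 residual degrees of freedom. The fit was tested on simulated data with independent noise for each value, which does not cover differences shared by a whole array. A single symbol was given for 10855 probe sets, several for 396 and no symbol for 1237, all kept as annotated. A gene is given by 1 probe set, plain identifiers first and then the brightest, which left 8059 genes, except that Fmr1 and Slc25a5 were named from another probe set with a smaller p, given first. Named genes were those past the adjusted threshold without overlap between groups, filled to 10 on each side with the smallest unadjusted p, up to 3 members of each list, and Vdr, the retinoid X receptors, Cyp24a1, Cyp27b1, Capn2 and Actb. Further list members at an unadjusted p under 0.05, and those given to show an array order, were picked with their values known. The comparison and the 33 lists (757 genes with a probe set) were chosen with earlier results of these data known. No set test was run. Arrays and values of a list are described only.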

Additional observations from a re-analysis of the deposited data

How the results depend on the processing

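Results were recomputed with values as deposited, quantile normalization, floors of 5% and 20%, no filter, a filter on the mean, exact zeros missing, all 9 arrays in 1 fit, no intensity trend, array weights and each of the 6 arrays left out. The count of probe sets past the adjusted threshold stayed at 0 in all of these except without single arrays, where it ran from 0 to 2 (1 without calcitriol replicate 6, 2 without replicate 7). The smallest adjusted p of any probe set with all 6 EAE arrays in the fit was 0.15, with no intensity trend. The count at an unadjusted p under 0.05 was 317 with all 9 arrays in the fit and 376 to 730 without single arrays. Probe sets without overlap numbered 2151 to 2727 without single arrays, where fewer arrays have to be apart. Of 119 named probe sets, 117 kept their direction in every setting that could give a value, and 0 of 1888 recomputed values passed the adjusted threshold. Most of them were picked from these same data for a small p or for groups without overlap. Their kept direction was therefore largely fixed by the choice and lends the differences no support. Vdr ranged from -0.38 to 0.46 log2 and Actb from -0.53 to 0.043 without single arrays, both changing sign (Vdr 0.46 without placebo replicate 10, 0.17 without calcitriol replicate 7 and 0.13 without calcitriol replicate 8, Actb 0.043 without placebo replicate 10), and the cause was not tested. The beta-actin 5′ minus 3′ difference between the groups was 0.13, -0.17 with quantile normalization and -0.021 (without placebo replicate 1) to 0.32 without single arrays, and the cause was not tested. Array weights were 0.51 on calcitriol replicate 6 and 1.41 on replicate 7. No paired analysis was possible because the groups share no replicate number. The number of arrays and the signal over the floor limit what could be seen.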
